A study of Homo sapiens with 27 samples.

Results

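Untreated WM793B melanoma cells were compared with untreated SK-OV-3 ovarian cancer cells, 3 arrays against 3, to describe which genes set a melanoma line apart from an ovarian cancer line before any hypoxia. These 6 arrays were chosen by their titles and labels from the 27 arrays of the series, and all genes measured on them were considered. The series placed 3 human cancer cell lines under chronic or cycling hypoxia. Its hypoxic arrays and its PC-3 prostate cancer cells took no part in the comparison. Both groups had been kept at 21% oxygen for 72 h, without any hypoxic period. WM793B cells were grown in 2% Tu medium with 2% fetal bovine serum, 0.005 mg/ml bovine insulin and 1.68 mmol/l CaCl2, and SK-OV-3 cells in McCoy's medium with 10% fetal bovine serum. The cell line and its medium therefore cannot be told apart in any result below. Each group is 1 established line with 3 arrays labelled as biological replicates, so the p-values measure the spread between cultures of a line and not the spread among melanomas or ovarian cancers.

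Melanocytes arise from the neural crest, a migratory embryonic population that also gives rise to Schwann cells and peripheral neurons. The factor MITF, with SOX10 and PAX3, switches on the enzymes and structural proteins of the pigment granule, and melanomas can lose that pigment program while keeping neural crest factors. Ovarian carcinomas are epithelial tumors that often carry transcription factors of the Mullerian duct, such as PAX8. Epithelial cells hold together through E-cadherin junctions, claudins, desmosomes and keratin filaments.

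Promoter sequences are shown for genes that separate the lines and for pigment genes that do not, with the motifs that lineage factors can bind. In each, the 250 bases before a start of the gene are given 5′ to 3′ on the strand of the gene, from RefSeq on GRCh38.p14, with the motif in capitals. CLDN7 and MUC1 have 2 listed starts each, and the start with the most motif matches was chosen. The first set carries TCATGTG or its reverse complement CACATGA, the core of the M-box bound by MITF: GPNMB was above the noise level only in WM793B, while TYR and TYRP1 were at the noise level in both lines. The start sites lie downstream of chr7:23246525-23246774 (plus strand), chr11:89177625-89177874 (plus strand) and chr9:12693135-12693384 (plus strand).
GPNMB: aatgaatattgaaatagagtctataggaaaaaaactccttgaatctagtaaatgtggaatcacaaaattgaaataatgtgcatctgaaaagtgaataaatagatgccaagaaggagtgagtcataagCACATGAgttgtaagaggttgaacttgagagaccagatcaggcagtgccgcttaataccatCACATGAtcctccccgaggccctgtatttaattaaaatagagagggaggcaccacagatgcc
TYR: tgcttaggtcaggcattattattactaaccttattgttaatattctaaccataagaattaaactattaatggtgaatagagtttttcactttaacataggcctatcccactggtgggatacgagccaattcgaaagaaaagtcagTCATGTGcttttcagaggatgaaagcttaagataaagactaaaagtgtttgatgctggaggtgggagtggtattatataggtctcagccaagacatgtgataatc
TYRP1: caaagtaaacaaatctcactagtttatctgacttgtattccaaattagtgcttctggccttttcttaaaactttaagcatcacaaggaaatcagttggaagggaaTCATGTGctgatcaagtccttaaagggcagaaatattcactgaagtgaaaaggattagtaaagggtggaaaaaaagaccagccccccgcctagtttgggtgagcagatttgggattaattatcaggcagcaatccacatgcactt
The second set carries CAGGTG or its reverse complement CACCTG, the E-box that the repressors SNAI1, SNAI2, ZEB1 and ZEB2 can bind, in 3 epithelial genes that were lower in WM793B. These stretches are chr17:7262479-7262728 (minus strand), chr1:202010337-202010586 (plus strand) and chr1:155192910-155193159 (minus strand).
CLDN7: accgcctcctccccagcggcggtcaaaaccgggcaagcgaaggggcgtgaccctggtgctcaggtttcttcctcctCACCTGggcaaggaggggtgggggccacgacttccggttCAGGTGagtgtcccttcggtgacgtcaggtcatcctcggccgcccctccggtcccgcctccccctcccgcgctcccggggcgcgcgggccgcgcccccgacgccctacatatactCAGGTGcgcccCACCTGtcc
ELF3: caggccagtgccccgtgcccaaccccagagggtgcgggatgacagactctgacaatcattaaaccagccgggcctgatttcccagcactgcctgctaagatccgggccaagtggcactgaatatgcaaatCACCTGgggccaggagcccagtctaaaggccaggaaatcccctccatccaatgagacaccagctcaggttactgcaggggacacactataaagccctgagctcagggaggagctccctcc
MUC1: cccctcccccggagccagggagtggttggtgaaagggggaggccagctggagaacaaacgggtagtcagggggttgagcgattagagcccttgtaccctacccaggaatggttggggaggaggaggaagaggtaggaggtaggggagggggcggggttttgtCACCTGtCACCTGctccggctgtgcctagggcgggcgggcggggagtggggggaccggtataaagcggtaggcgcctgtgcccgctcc
The GPNMB stretch held the M-box 123 and 62 bases before the start, TYR held it 105 bases before and TYRP1 145 bases before. CLDN7 held the E-box at 4 positions, MUC1 at 2 and ELF3 at 1, for CLDN7 and MUC1 at the start chosen for the most matches. Over both strands of the same window, the E-box was present in 14.94% of 1011 promoters of genes above the noise level only in WM793B, in 23.14% of 726 promoters of genes above it only in SK-OV-3, and in 16.84% of 21490 promoters of genes on the array. The M-box was present in 2.08%, 1.38% and 1.89% of the same promoters. A match describes letters in a window and not a bound site, and genes with several listed starts count once for each start.

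The arrays were Affymetrix U133 Plus 2.0 chips, which read each gene by 1 or more sets of short probes. Signals are log2 values after GC-RMA, a method that subtracts background by probe base composition and scales the arrays to one another, and a difference of 1 is 2-fold. Arrays of the same line correlated at r = 0.996 to 0.998 and arrays of different lines at r = 0.893 to 0.895, over 54613 probe sets. Between 32.0% and 33.6% of the signals on each array sat at the lowest value that the method gives, 2.28, and a signal of 5 or less was read here as noise. That cut was set on the log2 scale for this comparison. The study put its noise level at 5 beside expression values higher than any log2 signal here, so its level may be unlogged and lower. A gene at noise here may therefore still be expressed. With a cut of 4 or 6, 1322 or 1631 genes were above it in a single line, against 1503 with 5. Signals at or below that level made up 66.1%, 66.3% and 66.8% of probe sets on the WM793B arrays and 67.5%, 67.4% and 67.3% on the SK-OV-3 arrays (exact permutation test of the means, two-sided p = 0.1, the smallest that 3 arrays against 3 can give). Each gene took the values of its brightest probe set, and it was called where limma gave an adjusted p under 0.05 and at least 2-fold. Where all 3 arrays of a line were at noise, the fold is given only as a lower bound, against a signal of 5, and is written as "at least". Calls, adjusted p and list medians still rest on the full difference of signals. A called gene such as MSX2 or MAPT can therefore have a bound under 2-fold. No marker of leukocytes and red cells (9 measured) or of endothelium (8 measured) rose above noise on any array, with highest signals of 2.70 and 4.31.

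Of 19775 genes, 2700 were higher in WM793B (13.7%) and 2495 were lower (12.6%), 26.3% in all. Among genes with a mean above 5, 21.6% were higher and 20.1% lower, 41.7% in all. List counts below are to be read beside these shares. The counts over probe sets were 5606 higher (10.3%) and 5170 lower (9.47%) of 54613 (19.7% in all), and this excess of higher calls turned round when the arrays were quantile-normalized again, to 5321 higher and 5543 lower. Of the called genes, 2730 differed 2-fold to 4-fold, 2465 at least 4-fold and 758 at least 16-fold. In 10234 genes (51.8%) the values of the lines did not overlap. A total of 833 genes were called and above noise on all arrays of WM793B but none of SK-OV-3 (4.21%), and 670 genes were called and above it on all arrays of SK-OV-3 but none of WM793B (3.39%). Another 9186 genes (46.45%) stayed at noise on all 6 arrays, and 383 of these were still called, so list counts below say how many calls lay there. The typical spread was small: the median SD of a gene with a mean above 5 was 0.12 in WM793B and 0.12 in SK-OV-3.

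**Figure D1:**
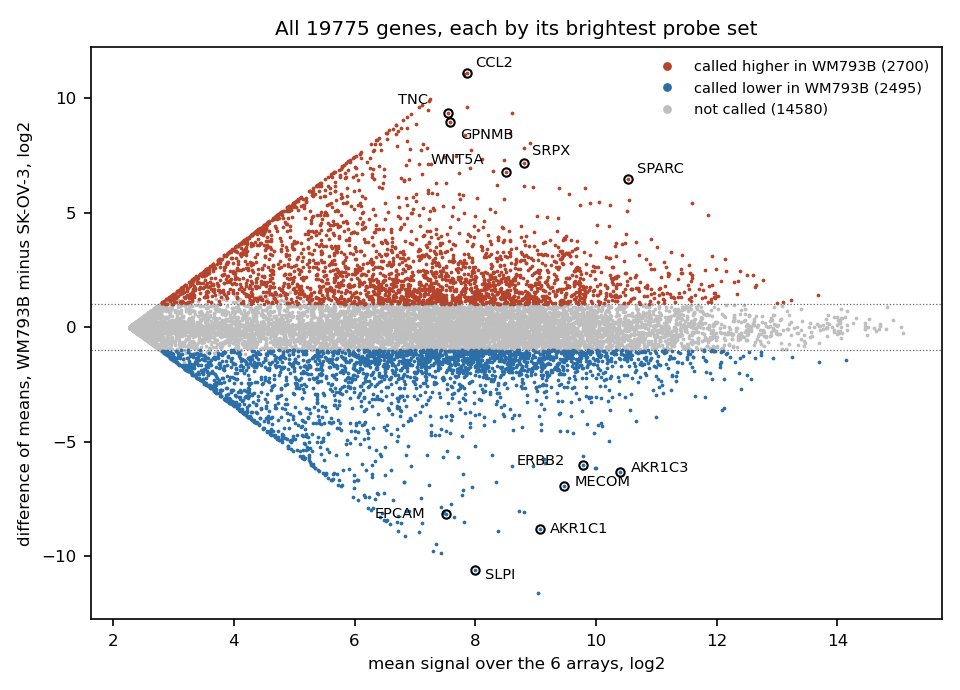
Each point is a gene, with its mean signal over the 6 arrays (log2) on the horizontal axis and the difference of means, WM793B minus SK-OV-3 (log2), on the vertical axis. Red points were called higher in WM793B, blue points lower and grey points not called. Dotted lines mark 2-fold, and the straight edges of the cloud are genes at the lowest value in a line.

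Among the genes at noise in SK-OV-3, CCL2, THBS2 and COL8A1 had the highest bounds. CCL2, the chemokine that recruits monocytes, read 13.52, 13.52 and 13.18 in WM793B and 2.32 on all 3 arrays of SK-OV-3. It was bright in every WM793B culture and at noise in every SK-OV-3 culture, at least 339-fold higher in WM793B (limma adjusted p = 4.48e-06). THBS2, an anti-angiogenic matrix protein, read 13.12, 13.45 and 13.42 in WM793B and 2.29 on all 3 arrays of SK-OV-3 (at least 322-fold). The collagen COL8A1 read 13.25, 13.22 and 13.32 in WM793B and 3.58, 3.86 and 4.40 in SK-OV-3 (at least 307-fold). The others of the 12 with the highest bounds were IGFBP2, PCOLCE, TNC, TAC1, SGK1, GPNMB, TIMP3, CYTL1 and GAS7, from at least 123-fold to at least 223-fold. They include the enhancer of procollagen processing PCOLCE, the metalloproteinase inhibitor TIMP3 and the stress-induced kinase SGK1. PCOLCE, TAC1 and GPNMB lie on chromosome 7, where most genes with a mean above 5 were higher, as described below. Of the genes with means above 5 in both lines, the largest differences towards WM793B were of SRPX, WNT5A, SPARC, SERPINA3, EFEMP1, KLF9, CSRP2, MMP2, PLOD3, CDKN2A, DEPDC7 and TSPAN13. PLOD3 and TSPAN13 also lie on chromosome 7. SRPX read 12.36, 12.36 and 12.42 in WM793B and 4.92, 4.99 and 5.75 in SK-OV-3, with a difference of 7.16 ± 0.26 on the log2 scale (SE, n = 3 each; limma adjusted p = 0.000114). As 2 of its SK-OV-3 signals lie at noise, that size and its first rank are inexact. TSPAN13, last of the 12, differed by 5.56 ± 0.09 on the log2 scale (SE, n = 3 each; limma adjusted p = 1.64e-05). For MMP2, the gelatinase A gene, 1 of 3 probe sets was called, and for KLF9 2 of 5.

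Among the genes at noise in WM793B, TMSB4X had the highest bound. TMSB4X, which codes for an actin-binding peptide and is read by a single probe set here, had signals of 2.82, 3.38 and 3.53 in WM793B and 14.78, 14.88 and 14.88 in SK-OV-3, at least 921-fold lower in WM793B (limma adjusted p = 2.15e-05); near-identical copies of this gene exist, so which copy was read is uncertain. SLPI, a protease inhibitor of mucosal secretions, read 3.13, 2.28 and 2.64 in WM793B and 13.30, 13.35 and 13.23 in SK-OV-3 (at least 314-fold lower). IL1R2, the decoy receptor for interleukin 1, read 3.84, 3.84 and 4.10 in WM793B and 12.74, 12.78 and 12.95 in SK-OV-3 (at least 227-fold lower). Every WM793B array lay at noise for these, and every SK-OV-3 array above 12. The 12 with the highest bounds also included AKR1C1, CALB1, DHRS2, ASS1, CD24, MAL2, EPCAM, NUPR1 and BASP1. ASS1, which makes argininosuccinate for arginine synthesis, read 2.50, 2.50 and 2.83 in WM793B and 11.98, 12.19 and 12.11 in SK-OV-3 (at least 137-fold lower). Of genes with means above 5 in both lines, the largest differences towards SK-OV-3 were of MECOM, AKR1C3, RESF1, AMIGO2, RNASET2, ASRGL1, ERBB2, CYP1B1, CLGN, GDA, AHNAK2 and DEPTOR. For RNASET2, 2 of 6 probe sets were called. DEPTOR, an inhibitor of the kinase mTOR, differed by -5.20 ± 0.05 on the log2 scale (SE, n = 3 each; limma adjusted p = 5.14e-06), the smallest of the 12.

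WM793B cells expressed the melanocyte lineage factors SOX10 and PAX3 while pigment genes stayed at noise. Of 26 measured genes of the melanocyte and pigment list, 10 were called higher, and each of these 10 was at noise on all SK-OV-3 arrays. With the 2 lower calls given below, 46.2% of the list was called, against 26.3% of all genes and 41.7% of genes with a mean above 5. Of the 14 members above noise on at least 1 array, 10 were called higher and 1 lower. SOX10, the neural crest and melanocyte factor, read 10.48, 10.49 and 10.31 in WM793B and 2.28 on all 3 arrays of SK-OV-3, at least 43.0-fold higher in WM793B (limma adjusted p = 2.01e-06). PAX3, its partner factor, read 8.51, 7.96 and 8.35 in WM793B and 2.28, 2.28 and 2.46 in SK-OV-3, with 1 of 4 probe sets called higher. No SOX10 or PAX3 signal of SK-OV-3 rose above noise. EDNRB, the endothelin receptor of melanoblasts, read 10.78, 10.63 and 10.96 in WM793B and 2.35, 2.28 and 2.28 in SK-OV-3 (at least 55.3-fold higher). S100B, a calcium-binding protein used as a melanoma marker, read 11.53, 11.24 and 11.20 in WM793B and 2.28 on all 3 arrays of SK-OV-3 (at least 80.1-fold), and GPNMB, a glycoprotein of melanosomes, read 12.14, 12.15 and 11.85 in WM793B and 3.79, 2.86 and 2.64 in SK-OV-3 (at least 132-fold). ERBB3, LEF1, GPM6B, CSPG4 and MCAM completed the 10, the last 2 coding for melanoma surface antigens. For S100B and for MCAM, 1 of 2 probe sets was called.

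Pigment genes were at noise in both lines. PMEL, MLANA, TYR, TYRP1, GPR143, SLC45A2, OCA2 and TRPM1, which code for melanosome proteins, melanin enzymes and transporters, stayed at noise on all 6 arrays, with a highest signal of 3.95. MITF itself read 8.51, 8.41 and 8.21 in WM793B and 9.15, 9.26 and 9.37 in SK-OV-3. All WM793B values lay below all SK-OV-3 values, and the difference, -0.89 ± 0.11 on the log2 scale (SE, n = 3 each; limma adjusted p = 0.0039), was under 2-fold and not called. A second MITF probe set gave a difference of -1.05 ± 0.09 and was called lower. RAB38, a small GTPase that carries cargo to melanosomes, was lower in WM793B, at 3.02, 3.03 and 3.02 in WM793B and 6.78, 6.85 and 6.84 in SK-OV-3. The other lower call, CAPN3, lay at noise in both lines.

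**Figure D2:**
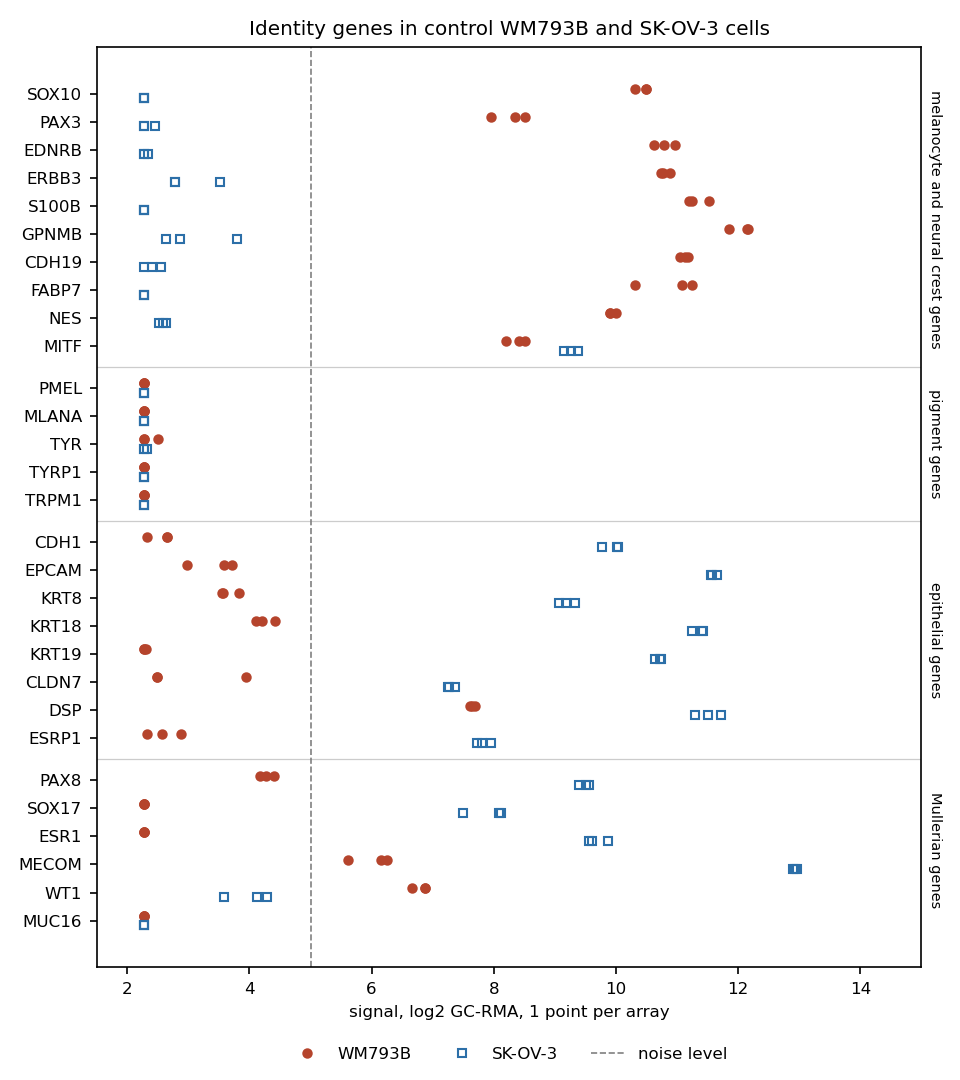
Signals (log2, horizontal axis) of identity genes, with 1 point per array: filled circles for WM793B and, under them, open squares for SK-OV-3; the dashed line marks the noise level of 5. The neural crest genes shown are above noise only in WM793B, except MITF, which is above it in both lines. The pigment genes are above it in neither. CDH1, EPCAM, the keratins, CLDN7, ESRP1, PAX8, SOX17 and ESR1 are above it only in SK-OV-3, WT1 only in WM793B, and DSP and MECOM in both.

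Neural crest genes were higher in WM793B in 9 of 20 and lower in 3. CDH19, a cadherin of Schwann cell precursors, read 11.13, 11.18 and 11.05 in WM793B and 2.55, 2.41 and 2.28 in SK-OV-3. FABP7, a fatty acid carrier of glia, read 11.08, 11.24 and 10.31 in WM793B and 2.28 on all 3 arrays of SK-OV-3, and NES, the intermediate filament of neural progenitors, 9.90, 10.01 and 9.91 in WM793B and 2.63, 2.51 and 2.59 in SK-OV-3. These 3 genes were at noise on every SK-OV-3 array, with bounds of 30.7 to 69.4-fold. SOX2, the stem cell factor, read 7.98, 7.99 and 7.05 in WM793B and 2.28 on all 3 arrays of SK-OV-3, and FOXD3, RXRG, SNAI2, ETS1 and TWIST1 were also higher. For FOXD3, 1 WM793B array lay at noise, the difference was at least 1.29-fold and 1 of 3 probe sets was called. NGFR and SOX9, a receptor and a factor of the early crest, lay at noise in both lines. The lower genes were the adhesion molecule ALCAM, with a difference of -2.52 ± 0.17 on the log2 scale (SE, n = 3 each; limma adjusted p = 0.000596), and the homeobox factors MSX1 and MSX2, the first with a difference of -1.47 and the second at noise in WM793B and at least 1.92-fold lower.

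Genes of the undifferentiated, invasive melanoma state pointed both ways. Of 23 measured, 12 were higher and 3 lower, and their median difference was 1.95. WNT5A, a non-canonical Wnt ligand of invasive melanoma, read 11.62, 11.78 and 12.23 in WM793B and 5.36, 5.14 and 4.87 in SK-OV-3, a difference of 6.75 ± 0.22 on the log2 scale (SE, n = 3 each; limma adjusted p = 9e-05) with 1 SK-OV-3 array at noise. TNC, the matrix protein tenascin C, read 12.19, 12.17 and 12.34 in WM793B and 2.60, 3.43 and 2.58 in SK-OV-3. INHBA, the activin subunit, read 9.0, 9.09 and 8.83 in WM793B and 3.38, 3.27 and 3.42 in SK-OV-3, and NTM, a neural adhesion molecule, 11.01, 11.11 and 10.78 in WM793B and 2.31 on all 3 arrays of SK-OV-3. AXL, a receptor kinase used as a marker of this state, read 9.51, 9.39 and 9.48 in WM793B and 9.77, 9.71 and 9.53 in SK-OV-3. Its difference, -0.21 ± 0.08 on the log2 scale (SE, n = 3 each; limma adjusted p = 0.133), was not called, and the highest WM793B value lay just below the lowest SK-OV-3 value. EGFR differed by -1.34 ± 0.10 on the log2 scale (SE, n = 3 each; limma adjusted p = 0.000907), NNMT by -2.29 and AJUBA by -2.92, all lower in WM793B.

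Most epithelial genes that rose above noise were lower in WM793B. Of 42 measured genes for junctions, keratins and epithelial factors, 31 were lower in WM793B above the noise level, 1 more at noise, and the only higher gene, GRHL1, lay at noise in both lines (4.58 in WM793B and 2.70 in SK-OV-3). Another 8 genes at noise in both lines were not called, CGN, EVPL, CDH3, GRHL2, OVOL1, ST14, PRSS8 and RAB25. The median difference was -4.50, against 0.00 over all 19775 genes. CDH1, which codes for E-cadherin, read 2.64, 2.65 and 2.32 in WM793B and 9.77, 10.03 and 10.01 in SK-OV-3, at least 30.7-fold lower in WM793B (limma adjusted p = 2.01e-05). EPCAM, the epithelial adhesion molecule, read 3.72, 2.98 and 3.58 in WM793B and 11.56, 11.57 and 11.65 in SK-OV-3 (at least 96.4-fold lower). All WM793B arrays were at noise for both. The 5 measured keratins of this list were all lower, KRT7 in 1 of 4 probe sets and KRT19 in 1 of 2. KRT19 read 2.31, 2.28 and 2.28 in WM793B and 10.63, 10.74 and 10.72 in SK-OV-3. KRT18 averaged 4.24 ± 0.16 in WM793B and 11.36 ± 0.10 in SK-OV-3, and KRT8 3.65 ± 0.16 in WM793B and 9.19 ± 0.14 in SK-OV-3 (SD, n = 3 each). The 4 claudins of this list were lower as well, from CLDN1 at 4.12 in WM793B and 11.45 in SK-OV-3 to CLDN4 at 3.28 in WM793B and 4.65 in SK-OV-3. CLDN4 passed the noise level on 1 SK-OV-3 array only, at 5.002. Of 8 desmosome and plakin genes, 7 were lower, among them DSP at 7.65 in WM793B and 11.51 in SK-OV-3 and PKP2 at 2.63 in WM793B and 7.73 in SK-OV-3. ESRP1, the splicing factor of epithelial isoforms, averaged 2.59 ± 0.28 in WM793B and 7.83 ± 0.12 in SK-OV-3, and the epithelial transcription factors ELF3 and EHF 3.74 in WM793B and 8.27 in SK-OV-3 and 3.28 in WM793B and 9.73 in SK-OV-3 (SD, n = 3 each). MAL2 and CD24, a transport protein and a surface glycoprotein of epithelia, were at least 110.3-fold and at least 133.1-fold lower. ITGA6, the integrin partner of ITGB4, averaged 10.43 in WM793B and 10.35 in SK-OV-3 and was not called.

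Mullerian markers were partly present in SK-OV-3. Of 24 measured, 10 were lower in WM793B, 1 of them at noise in both lines, and 1 was higher. That is 45.8% called, against 26.3% of all genes and 41.7% of genes with a mean above 5. Of the 11 members above noise on at least 1 array, 9 were called lower and 1 higher. PAX8, the Mullerian lineage factor, read 4.17, 4.26 and 4.40 in WM793B and 9.56, 9.51 and 9.39 in SK-OV-3, at least 22.4-fold lower in WM793B, and all 8 of its probe sets were called lower. SOX17 read 2.28 on all 3 arrays of WM793B and 7.50, 8.08 and 8.11 in SK-OV-3. ESR1, the estrogen receptor, read 2.28 on all 3 arrays of WM793B and 9.56, 9.61 and 9.87 in SK-OV-3. WM793B arrays lay at noise for all 3 genes. MECOM, a zinc finger oncogene product of chromosome 3, read 6.15, 6.25 and 5.61 in WM793B and 12.90, 12.93 and 12.96 in SK-OV-3, a difference of -6.93 ± 0.19 on the log2 scale (SE, n = 3 each; limma adjusted p = 6.11e-05). The antigen gene MUC16 and the factors PAX2 and EMX2 were at noise in both lines, as were PGR and the 6 kallikreins of this list. WT1, a factor of serous ovarian tumors, went the other way, at 6.87, 6.65 and 6.87 in WM793B and 3.59, 4.29 and 4.13 in SK-OV-3, and was at least 3.48-fold higher in WM793B. FOLR1, the folate receptor, was bright in both lines (10.32 in WM793B and 11.04 in SK-OV-3) and not called, though 1 of its 2 probe sets was called lower.

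Mesenchymal genes separated the lines in part: 9 of 16 were higher in WM793B and 2 lower. VIM, the intermediate filament vimentin, read 14.11, 14.11 and 14.16 in WM793B and 13.91, 14.003 and 13.89 in SK-OV-3, a difference of 0.19 ± 0.04 on the log2 scale (SE, n = 3 each; limma adjusted p = 0.0182) that was under 2-fold. The other VIM probe set was called higher, and the median over both sets was 1.21 (limma adjusted p = 0.00206), which would be a call. ZEB1, a repressor of epithelial genes, read 9.40, 9.47 and 9.48 in WM793B and 9.10, 9.03 and 8.95 in SK-OV-3 and was not called either. ZEB2 read 7.71, 7.41 and 7.99 in WM793B and 2.28, 2.29 and 2.29 in SK-OV-3, and PRRX1 9.74, 9.72 and 9.37 in WM793B and 3.36, 3.06 and 3.56 in SK-OV-3. Both were at noise on every SK-OV-3 array. SNAI1, CDH2, FN1, SPARC, MMP2, TWIST1 and ACTA2 were also higher, ACTA2 by 1 of 3 probe sets and ZEB2 by 2 of 5. TAGLN, an actin-binding protein of smooth muscle, and TWIST2 were at noise in WM793B only, at 2.98 in WM793B and 7.96 in SK-OV-3 and 2.68 in WM793B and 6.04 in SK-OV-3.

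The gene for the receptor kinase ERBB2, for which SK-OV-3 is a known overexpressing line, was among the genes with the largest differences. ERBB2 read 6.60, 6.98 and 6.76 in WM793B and 12.83, 13.01 and 12.50 in SK-OV-3, a difference of -6.00 ± 0.18 on the log2 scale (SE, n = 3 each; limma adjusted p = 7.13e-05), or 64.0-fold lower in WM793B. Of its 18 measured neighbours on 17q12, 12 were also lower in WM793B, 11 of them above noise, and none was higher. PPP1R1B, a phosphatase inhibitor of signalling by dopamine, read 2.49, 2.48 and 2.41 in WM793B and 10.91, 11.15 and 10.79 in SK-OV-3 (at least 61.8-fold lower). PGAP3, an enzyme of lipid anchor remodelling, read 3.96, 3.96 and 3.74 in WM793B and 9.10, 9.04 and 9.23 in SK-OV-3, and GRB7, an adaptor of receptor kinases, 3.56, 3.91 and 3.95 in WM793B and 8.79, 8.64 and 8.51 in SK-OV-3. All were at noise on every WM793B array and well above it on every SK-OV-3 array. STARD3 and MIEN1, next to these, differed by -3.74 and -2.23. Farther out, the differences were -1.42 for CDK12, -1.02 for MED1 and -2.20 for PSMD3, while ORMDL3, at -0.90, was not called. The 6 genes at noise in both lines include IKZF3 and NEUROD2, which lie among them. DNA was not measured.

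**Figure D3:**
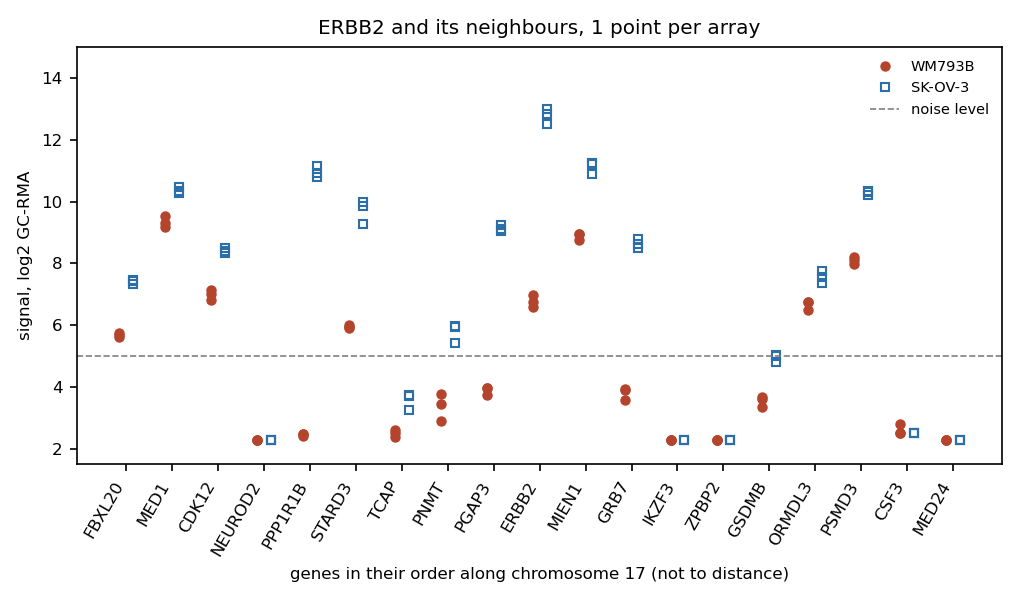
Signals (log2, vertical axis) of ERBB2 and its neighbours in gene order along chromosome 17 (horizontal axis), with 1 point per array: filled circles for WM793B and open squares for SK-OV-3, and a dashed line at the noise level of 5. SK-OV-3 points lie above WM793B points at every gene that rises above noise.

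Members of the EGF receptor family differed in both directions, and ERBB2, EGFR, the ligand gene TGFA and the inhibitor gene ERRFI1 were above noise in both lines. ERBB3, a kinase-impaired partner that binds neuregulins, read 10.78, 10.89 and 10.73 in WM793B and 2.78, 3.52 and 2.78 in SK-OV-3, at least 55.7-fold higher in WM793B (limma adjusted p = 7.89e-05). EGFR read 8.08, 8.15 and 8.15 in WM793B and 9.58, 9.27 and 9.57 in SK-OV-3, and ERBB4 4.33, 3.88 and 3.48 in WM793B and 6.8, 6.92 and 6.67 in SK-OV-3, both lower in WM793B. Among the ligands, EREG read 2.31, 2.28 and 2.28 in WM793B and 6.57, 6.52 and 6.94 in SK-OV-3 and BTC 2.53, 2.37 and 3.58 in WM793B and 6.74, 6.73 and 6.72 in SK-OV-3. Of 12 measured genes of the family, 1 was higher and 5 were lower, and the ligands EGF, HBEGF, NRG1 and NRG2 were at noise in both lines. The called share was 50%, against 26.3% of all genes and 41.7% of genes with a mean above 5.

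The MAP kinase ERK induces inhibitors of its own pathway, along with other targets. Of 19 measured genes of the pathway and its targets, 12 were higher in WM793B and 2 lower, with a median difference of 1.51. SPRY4, a feedback inhibitor of receptor signalling, read 10.78, 10.82 and 10.89 in WM793B and 5.52, 5.97 and 5.93 in SK-OV-3, a difference of 5.02 ± 0.14 on the log2 scale (SE, n = 3 each; limma adjusted p = 6.33e-05). DUSP4, an ERK phosphatase, read 11.39, 11.34 and 11.74 in WM793B and 7.49, 7.56 and 8.0 in SK-OV-3, and ETV1, an ERK-responsive ETS factor on chromosome 7, 11.85, 11.85 and 11.63 in WM793B and 4.38, 4.89 and 4.07 in SK-OV-3. SPRY2, SPRY1, DUSP6, SPRED1, ETV4, EPHA4, CCND1, IER3 and FOSL1 were higher too. Of the kinases themselves, MAP2K1 differed by -0.83 and MAPK3 by -0.29, neither called. DUSP5 was lower, at 5.57, 5.67 and 6.01 in WM793B and 8.21, 8.30 and 8.19 in SK-OV-3. The other lower call, PHLDA1, differed by -1.03 ± 0.22 on the log2 scale (SE, n = 3 each; limma adjusted p = 0.0276); it was lost without any 1 of 5 arrays, all but WM793B replicate 3, and 1 of its 6 probe sets was called higher.

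The 9p21 genes were higher in WM793B as well. CDKN2A, which codes for p16 and ARF, read 10.88, 10.91 and 10.78 in WM793B and 5.30, 6.50 and 3.8 in SK-OV-3 by its brightest probe set, a difference of 5.65 ± 0.75 on the log2 scale (SE, n = 3 each; limma adjusted p = 0.00548), and the SK-OV-3 values of that set lay on both sides of the noise level. A second CDKN2A probe set read 9.47, 9.48 and 9.52 in WM793B and 2.40, 2.29 and 2.42 in SK-OV-3. MTAP, the neighbouring enzyme gene of the methionine salvage pathway, read 8.81, 9.11 and 8.88 in WM793B and 5.58, 5.73 and 5.86 in SK-OV-3, and CDKN2B 5.20, 5.22 and 5.83 in WM793B and 2.33, 2.32 and 2.32 in SK-OV-3. RB1, the retinoblastoma protein gene, was lower, with a difference of -1.18 ± 0.10 on the log2 scale (SE, n = 3 each; limma adjusted p = 0.00137). CDK6, the kinase that p16 inhibits, read 10.51, 10.50 and 10.41 in WM793B and 6.56, 6.70 and 6.76 in SK-OV-3. CDK6 lies on chromosome 7, where most genes with a mean above 5 were higher, as described below. Of 18 measured suppressor and cell cycle control genes, 9 were higher and 2 lower; MDM4, the second lower gene, had 1 of its 6 probe sets called higher.

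Proliferation genes gave the most one-sided count of the lists: 23 of 25 were higher in WM793B and none lower, with a median difference of 1.69. MKI67, the proliferation marker Ki-67, read 8.05, 8.17 and 7.98 in WM793B and 5.96, 6.18 and 6.18 in SK-OV-3, a difference of 1.96 ± 0.09 on the log2 scale (SE, n = 3 each; limma adjusted p = 0.000203). BUB1, a spindle checkpoint kinase called in 2 of its 5 probe sets, read 8.31, 8.22 and 8.58 in WM793B and 4.38, 3.52 and 4.05 in SK-OV-3, CCNE2, the cyclin E2 gene, 8.04, 7.72 and 7.68 in WM793B and 4.33, 3.72 and 4.00 in SK-OV-3, and AURKB, a mitotic kinase, 8.48, 8.35 and 8.42 in WM793B and 4.30, 4.43 and 5.10 in SK-OV-3. In none of these did a WM793B value fall among the SK-OV-3 values. UBE2C and TOP2A differed by 3.79 and 1.69. MCM2 and E2F1 were not called, with means of 7.95 in WM793B and 8.04 in SK-OV-3 and 6.34 in WM793B and 5.36 in SK-OV-3. The medium differs in serum and insulin, and growth rate was not measured.

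Genes of cholesterol and fatty acid synthesis were higher in WM793B in 15 of 22 and lower in 1, with a median difference of 1.69. HMGCS1, an early enzyme of the mevalonate pathway, read 10.40, 10.47 and 10.32 in WM793B and 6.90, 7.07 and 7.40 in SK-OV-3, a difference of 3.28 ± 0.15 on the log2 scale (SE, n = 3 each; limma adjusted p = 0.000214). FDPS, which makes farnesyl diphosphate, read 13.03, 13.06 and 12.89 in WM793B and 9.74, 9.91 and 9.93 in SK-OV-3, and INSIG1, the sterol sensor partner on chromosome 7, 12.26, 12.22 and 12.21 in WM793B and 7.78, 7.98 and 7.63 in SK-OV-3. All 3 were above noise in both lines, with no overlap. ELOVL6, a fatty acid elongase, was at noise in SK-OV-3 (8.30 in WM793B and 4.58 in SK-OV-3), and FASN, SCD and ACLY were higher too. SC5D was the lower gene, with a difference of -1.54 ± 0.09 on the log2 scale (SE, n = 3 each; limma adjusted p = 0.000497) in 1 of 2 probe sets. SK-OV-3 was grown with the larger amount of serum, a source of cholesterol, and its part in these differences was not tested.

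The targets of NRF2, the factor of the antioxidant response, ran the other way. Of 24 measured, 14 were lower in WM793B, 2 of them at noise in both lines, and 2 were higher, 1 of them at noise; the median difference was -1.72. AKR1C1, a ketosteroid reductase, read 4.84, 4.75 and 4.38 in WM793B and 13.58, 13.47 and 13.37 in SK-OV-3, at least 355-fold lower in WM793B (limma adjusted p = 1.76e-05), and AKR1C3 read 7.56, 7.69 and 6.48 in WM793B and 13.52, 13.51 and 13.63 in SK-OV-3. The AKR1C genes are near-identical, so the split among them is uncertain. ABCC3, a drug and bile salt exporter, read 3.32, 3.48 and 3.07 in WM793B and 9.29, 9.29 and 9.33 in SK-OV-3. GCLC, the catalytic enzyme of glutathione synthesis, read 7.82, 7.72 and 7.47 in WM793B and 10.28, 10.23 and 10.47 in SK-OV-3, a difference of -2.65 ± 0.12 on the log2 scale (SE, n = 3 each; limma adjusted p = 0.000213). The cystine carrier gene SLC7A11 averaged 8.42 in WM793B and 12.05 in SK-OV-3, and UGT1A6, a glucuronosyl transferase gene, 2.28 in WM793B and 7.98 in SK-OV-3. NQO1, a standard target of NRF2, read 13.13, 13.26 and 12.89 in WM793B and 12.69, 12.84 and 12.60 in SK-OV-3 and was not called. ALDH1A1 was higher, at 5.16, 4.13 and 4.67 in WM793B and 2.30, 2.30 and 2.32 in SK-OV-3. Its SK-OV-3 arrays were all at noise, and of its WM793B signals only 5.16 lay above noise.

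**Figure D4:**
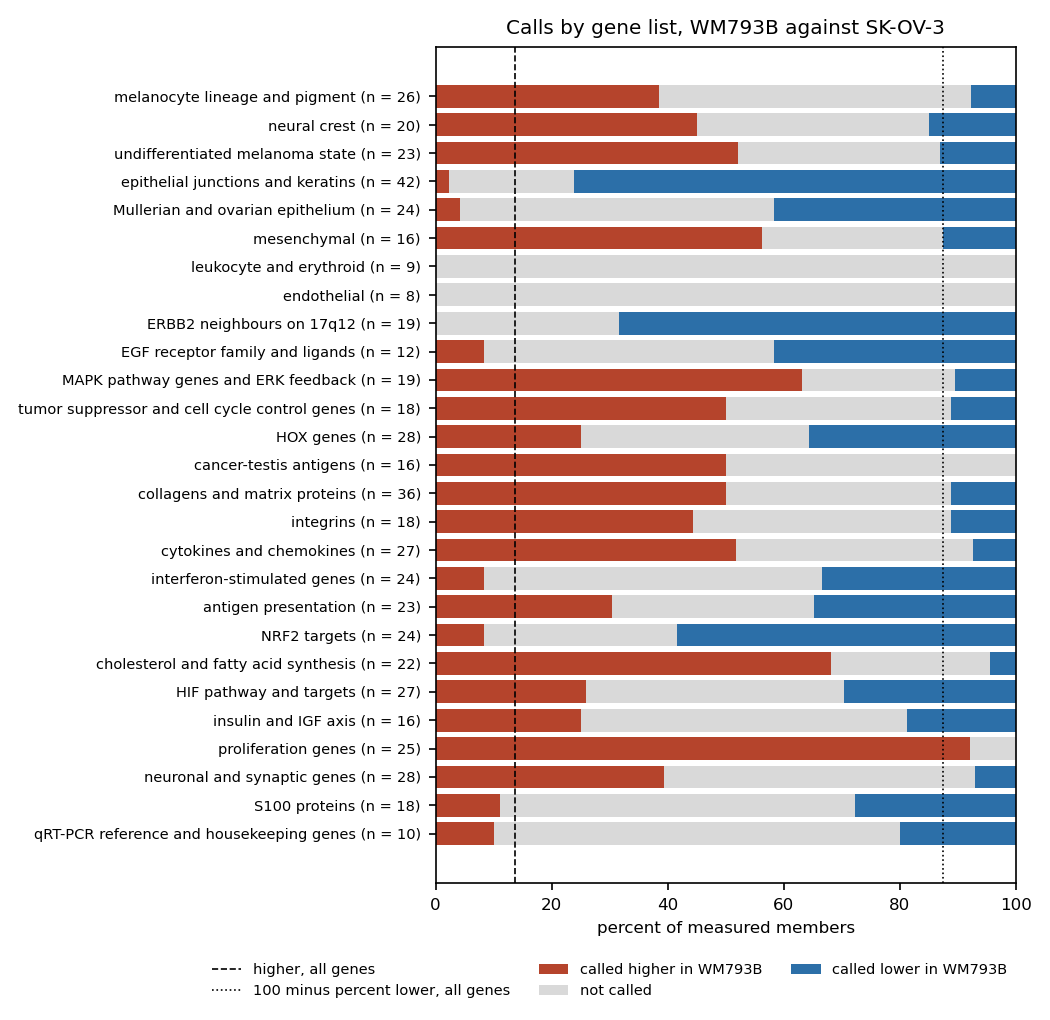
For each gene list, the percent of its measured members (horizontal axis; number in brackets) that was called higher in WM793B (red), not called (grey) or called lower (blue); dashed and dotted lines mark the shares over all genes. Proliferation and cholesterol and fatty acid genes are mostly red, epithelial genes, ERBB2 neighbours and NRF2 targets mostly blue, and leukocyte and endothelial markers grey throughout.

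Matrix and adhesion genes were higher in WM793B more often than lower. Of 36 collagens and matrix proteins, 18 were higher, 1 of them at noise in both lines, and 4 were lower. COL3A1, a fibrillar collagen, read 10.85, 10.74 and 11.22 in WM793B and 2.60, 2.77 and 3.06 in SK-OV-3, and NID1, a basement membrane linker, 11.02, 10.85 and 11.11 in WM793B and 2.43, 2.28 and 2.62 in SK-OV-3. LAMA4 and LAMB1, laminin chains, averaged 10.19 in WM793B and 2.45 in SK-OV-3 and 12.43 in WM793B and 8.0 in SK-OV-3. The direction was not shared by all: NID2, a close relative of NID1, differed by -3.27 ± 0.05 on the log2 scale (SE, n = 3 each; limma adjusted p = 1.14e-05), and COL1A1, LAMA5 and AGRN were also lower, by differences of -2.35, -1.55 and -1.52. Among 18 integrins, 8 were higher and 2 lower, 55.6% called, against 26.3% of all genes and 41.7% of genes with a mean above 5. ITGA4, the alpha chain of the VCAM1 receptor, read 10.97, 10.96 and 10.74 in WM793B and 2.36, 2.54 and 2.54 in SK-OV-3, at least 59.3-fold higher in WM793B, and ITGA9 8.42, 8.42 and 7.91 in WM793B and 2.40, 2.46 and 2.46 in SK-OV-3. ITGA3 and ITGB4, chains of laminin receptors on epithelia, were lower, at 6.74 in WM793B and 9.97 in SK-OV-3 and 3.23 in WM793B and 7.89 in SK-OV-3. ITGB1, the shared beta chain, averaged 13.32 in WM793B and 13.34 in SK-OV-3 and was not called.

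Cytokine genes were higher in WM793B in 14 of 27 and lower in 2. CXCL8, a neutrophil chemokine known as interleukin 8, read 14.36, 14.25 and 14.29 in WM793B and 8.69, 8.53 and 9.42 in SK-OV-3, a difference of 5.42 ± 0.26 on the log2 scale (SE, n = 3 each; limma adjusted p = 0.000261). IL1B, interleukin 1 beta, read 10.74, 10.87 and 10.84 in WM793B and 3.68, 3.33 and 4.10 in SK-OV-3, IL24 10.51, 10.63 and 9.79 in WM793B and 2.58 on all 3 arrays of SK-OV-3, and CCL20 8.70, 8.82 and 9.39 in WM793B and 2.92, 3.29 and 3.59 in SK-OV-3. The last 3 were at noise on all SK-OV-3 arrays. CXCL1, of the same chemokine family as CXCL8, read 13.63, 13.58 and 13.65 in WM793B and 10.48, 10.58 and 10.95 in SK-OV-3, whereas CXCL2 read 10.46, 10.27 and 10.47 in WM793B and 9.74, 9.79 and 10.55 in SK-OV-3, with overlapping values, and was not called. IL18 and TNFSF10, the death ligand TRAIL, were the lower genes, at 2.48 in WM793B and 8.84 in SK-OV-3 and 3.03 in WM793B and 6.56 in SK-OV-3.

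Antigen presentation split by class. Class II genes were higher in WM793B in 5 of 7: HLA-DRA read 11.23, 11.31 and 10.79 in WM793B and 2.28 on all 3 arrays of SK-OV-3, HLA-DPA1 12.00, 11.94 and 11.64 in WM793B and 2.28 on all 3 arrays of SK-OV-3 and CD74, the invariant chain, 12.00, 11.92 and 11.46 in WM793B and 3.85, 4.37 and 3.95 in SK-OV-3. SK-OV-3 was at noise for these 3 genes. CIITA, the master factor of class II, was at noise in both lines (2.81 in WM793B and 2.36 in SK-OV-3). Class I genes were lower in 5 of 6, from HLA-C, with a difference of -1.10 ± 0.03 on the log2 scale (SE, n = 3 each; limma adjusted p = 4.86e-05), to HLA-F, with -2.09, and all stayed bright in both lines. NLRC5, a factor that induces class I genes, read 2.29, 2.82 and 2.29 in WM793B and 7.27, 7.19 and 7.01 in SK-OV-3. The HLA genes are similar in sequence and their probe sets may share signal. Interferon-stimulated genes were lower in 8 of 24 and higher in 2. That is 41.7% called, against 26.3% of all genes and 41.7% of genes with a mean above 5. IFI27 read 2.28 on all 3 arrays of WM793B and 10.65, 10.30 and 10.72 in SK-OV-3, at least 47.1-fold lower in WM793B, and the ubiquitin-like modifier gene ISG15 read 6.73, 6.42 and 5.86 in WM793B and 9.41, 8.62 and 9.21 in SK-OV-3. The higher genes, IFI44 and IFIH1, differed by 1.81 ± 0.38 on the log2 scale (SE, n = 3 each; limma adjusted p = 0.0252) and 1.29 ± 0.20 on the log2 scale (SE, n = 3 each; limma adjusted p = 0.00897). The call of IFI44 was lost without SK-OV-3 replicate 1 or any single WM793B array, with limma adjusted p of 0.0662 to 0.0935.

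HOX genes, which record the position of a cell along the body axis, split by cluster. Of 10 HOXB genes, 8 were lower in WM793B and none higher, and of 9 HOXC genes, 4 were higher, 1 of them at noise in both lines, and none lower. HOXB2 read 2.91, 3.09 and 3.05 in WM793B and 9.55, 9.57 and 9.54 in SK-OV-3, and HOXB8 2.85, 2.85 and 3.20 in WM793B and 7.84, 7.61 and 7.44 in SK-OV-3. HOXC6 read 6.69, 6.84 and 6.66 in WM793B and 2.33, 2.28 and 2.28 in SK-OV-3, and HOXC10 6.78, 6.66 and 6.24 in WM793B and 2.59, 2.28 and 2.28 in SK-OV-3. Each pair was at noise in one line and above it in the other. Of 8 HOXD genes, 2 were higher and 2 lower, 1 of the lower (HOXD9) at noise in both lines, and of the HOXA cluster only HOXA2 was measured, at 5.32 in WM793B and 2.77 in SK-OV-3.

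Cancer-testis antigens, germ cell genes that tumors can switch on, were higher in WM793B in 8 of 16, 2 of them at noise in both lines, and none was lower. MAGEA6 read 11.48, 11.46 and 11.41 in WM793B and 2.61, 2.53 and 2.60 in SK-OV-3, MAGEA12 10.42, 10.44 and 10.49 in WM793B and 2.28 on all 3 arrays of SK-OV-3 and MAGEA10 7.74, 7.97 and 7.65 in WM793B and 2.28 on all 3 arrays of SK-OV-3. All SK-OV-3 arrays were at noise for these X-linked genes, which are similar enough in sequence for probes to be shared. PRAME, on chromosome 22, was measured in both lines, at 10.89, 11.02 and 10.78 in WM793B and 7.99, 7.86 and 7.89 in SK-OV-3, a difference of 2.98 ± 0.08 on the log2 scale (SE, n = 3 each; limma adjusted p = 4.95e-05).

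Of 18 measured S100 genes, 2 were higher and 5 lower, 1 of the 5 at noise in both lines. That is 38.9% called, against 26.3% of all genes and 41.7% of genes with a mean above 5. S100P, a calcium-binding protein of epithelia, read 2.53, 2.41 and 2.53 in WM793B and 10.97, 11.15 and 11.03 in SK-OV-3, at least 66.3-fold lower in WM793B, and S100A2 read 4.52, 4.84 and 5.31 in WM793B and 10.54, 10.46 and 10.62 in SK-OV-3. S100B, described above, had the opposite pattern.

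Hypoxia genes at normal oxygen differed in both directions, with 7 of 27 higher in WM793B and 8 lower. The called share was 55.6%, against 26.3% of all genes and 41.7% of genes with a mean above 5. HIF1A, the oxygen-regulated subunit, averaged 13.45 in WM793B and 13.66 in SK-OV-3 and was not called. EPAS1, which codes for HIF-2 alpha, read 9.93, 9.83 and 9.52 in WM793B and 11.06, 11.22 and 11.20 in SK-OV-3, a difference of -1.40 ± 0.13 on the log2 scale (SE, n = 3 each; limma adjusted p = 0.00161). CA12, a carbonic anhydrase, read 3.30, 3.30 and 3.54 in WM793B and 10.81, 10.98 and 10.69 in SK-OV-3 and was at least 56.8-fold lower in WM793B. VEGFA read 9.96, 9.97 and 10.70 in WM793B and 12.32, 12.22 and 12.41 in SK-OV-3, a difference of -2.11 ± 0.24 on the log2 scale (SE, n = 3 each; limma adjusted p = 0.00333). On the other side, NDRG1 read 11.81, 11.73 and 11.64 in WM793B and 8.81, 8.72 and 8.66 in SK-OV-3, HK2, a hexokinase, 8.75, 8.58 and 8.99 in WM793B and 5.64, 5.19 and 5.40 in SK-OV-3, and the glucose carrier SLC2A3 6.31, 6.50 and 6.58 in WM793B and 2.28 on all 3 arrays of SK-OV-3. SLC2A1, the related carrier gene, was lower in 1 of 2 probe sets, at 6.31 in WM793B and 8.0 in SK-OV-3.

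Chromosome 7 stood apart from every other chromosome. Of 454 genes there with a mean signal above 5, 359 were higher in WM793B (79.1%) and 11 lower (2.42%), against 1685 higher (18.7%) and 1886 lower (20.9%) of 9003 such genes elsewhere; over all genes of that brightness, 41.7% were called, 21.6% higher and 20.1% lower. The median difference was 1.93 on chromosome 7 and -0.14 elsewhere, where the medians of the 22 other chromosomes ranged from -0.40 to 0.25. Each array showed it: the chromosome 7 median against the mean of the other line was 1.95, 1.89 and 1.89 for the WM793B arrays and -1.95, -1.93 and -1.88 for the SK-OV-3 arrays. Among the 359 genes there that were above noise on all 6 arrays, the median was 1.73 and 277 were higher. The shift was present at all signal levels, with medians of 1.95 for mean signals of 5 to 7, 2.04 for 7 to 9, 1.92 for 9 to 11 and 1.67 above 11. Over all 933 measured genes of chromosome 7, with those at noise included, 414 were higher (44.4%) and 26 lower (2.79%), and the median was 0.66, against 2286 higher (12.1%) and 2469 lower (13.1%) of 18842 genes elsewhere. Without chromosome 7 the excess of higher calls turned round, to 2286 higher and 2469 lower of the other 18842 genes. DNA was not measured.

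**Figure D5:**
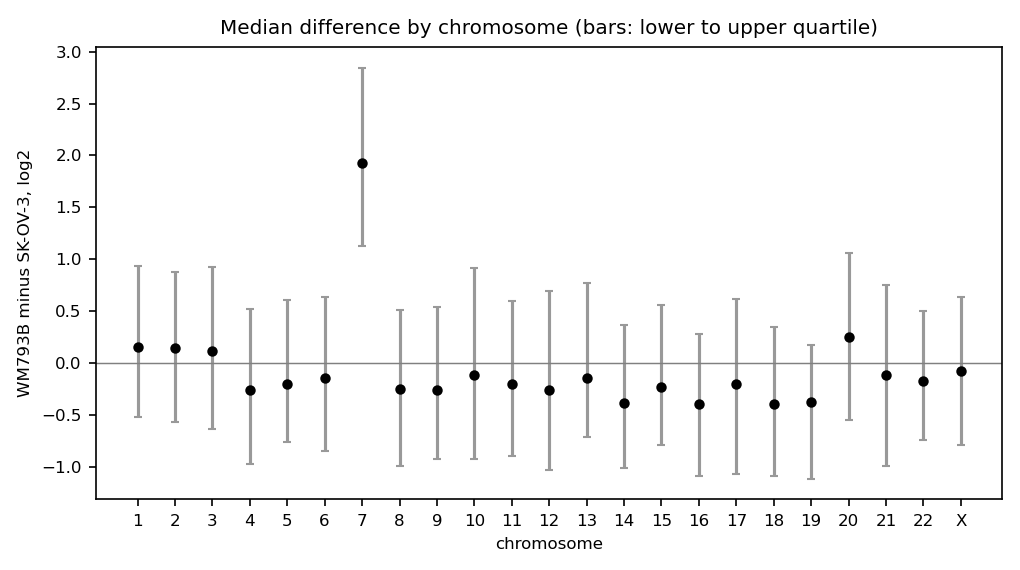
Median difference of genes with a mean signal above 5, WM793B minus SK-OV-3 (log2, vertical axis), for each chromosome (horizontal axis), with bars from the lower to the upper quartile. Chromosome 7 lies at 1.93, and the others lie between -0.40 and 0.25.

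Running medians over 15 neighbouring genes were above 0 in all 440 windows of chromosome 7, from 0.91 to 3.56, and above 1 in 431. The 8681 windows of other chromosomes had a median of -0.15 and a highest value of 2.56, with 288 above 1. Of all 9121 windows, those of chromosome 7 included, 5% lay above 1.31 and 5% below -0.91. The 3 highest windows were all on chromosome 7. The first ran from ETV1 to IL6, with a median of 3.56 and 12 of 15 genes higher, and holds AHR, HDAC9, TWIST1 and ITGB8. The second ran from YKT6 to FIGNL1, with 2.98, and the third from HYCC1 to NFE2L3, with 2.80, where GPNMB lies. ADCY1, an adenylate cyclase of the second, read 9.74, 9.58 and 9.37 in WM793B and 3.26, 3.13 and 2.88 in SK-OV-3. In the first window AHR, the dioxin receptor gene, averaged 9.54 ± 0.33 in WM793B and 9.02 ± 0.16 in SK-OV-3 and HDAC9, a histone deacetylase gene, 9.66 ± 0.08 in WM793B and 4.04 ± 0.53 in SK-OV-3 (SD, n = 3 each). Higher genes described above that also lie on chromosome 7 include PCOLCE, TAC1, PLOD3, TSPAN13, INHBA, LAMB1, CDK6, HOXA2 and INSIG1. Not every gene on the chromosome followed, since EGFR, IGFBP1, CLDN3 and CLDN4, all of chromosome 7, were lower in WM793B.

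The 3 lowest windows lay on chromosomes 12 and 19. A window from SMAGP to ZNF740 on chromosome 12, with a median of -2.24, holds the genes for KRT80, KRT7, KRT8 and KRT18, and 11 of its 15 genes were lower. A second on chromosome 12, from ZCRB1 to SLC48A1, had a median of -2.24 and 14 of 15 genes lower, with no gene above 0. In it AMIGO2, an adhesion protein gene, read 6.88, 7.04 and 6.83 in WM793B and 13.03, 12.95 and 13.17 in SK-OV-3, and SLC38A1, a glutamine carrier gene, 9.46, 9.37 and 9.73 in WM793B and 12.58, 12.53 and 12.33 in SK-OV-3. The third, from ZNF649 to ZNF468 on chromosome 19, held a run of zinc finger genes, 11 of 15 lower, with a median of -2.14. In it ZNF83 averaged 6.78 ± 0.03 in WM793B and 10.19 ± 0.15 in SK-OV-3 and ZNF528 4.51 ± 0.04 in WM793B and 7.72 ± 0.27 in SK-OV-3 (SD, n = 3 each). Genes of that family are alike in sequence, and their probe sets may share signal.

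Reference genes for qRT-PCR, those of the study and common ones, were not all level between the lines. The study chose its own pair for each line, HADHA and CTBP1 for SK-OV-3 and CTBP1 and EIF5 for WM793B. Differences between the lines therefore do not bear on its comparisons within a line. HADHA, EIF5 and CTBP1 differed by 0.79, -1.62 and -1.07; the first was not called, and the last 2 were lower in WM793B, CTBP1 with -0.96 and no call without SK-OV-3 replicate 1. HADHA would be called with the median over its probe sets (1.10, limma adjusted p = 0.00205), and EIF5 would not by its probe sets with the plain _at suffix (-0.57, limma adjusted p = 0.432). PPIA, on chromosome 7, differed by 1.38 in 1 of its 2 probe sets. ACTB, GAPDH, TBP, HPRT1, B2M and YWHAZ were not called, with TBP at 7.26 in WM793B and 7.34 in SK-OV-3 and HPRT1 at 9.76 in WM793B and 9.81 in SK-OV-3.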

How the data were processed

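RNA of 6 cultures was measured on Affymetrix U133 Plus 2.0 arrays. The authors processed all 27 arrays together with GC-RMA and deposited log2 values, with no depth or detection call, so precision rests on the number of arrays. Of 54675 probe sets, 62 control sets were left out. Platform annotation gave 1 gene symbol to 41091, several to 1801 and none to 11721. WM793B was compared with SK-OV-3 in limma 3.58.1 (R 4.3.3; lmFit, eBayes, Benjamini-Hochberg over 54613 probe sets), without the variation filter of the study, which draws on the hypoxic arrays and would select this contrast; hypoxic and PC-3 arrays entered alternatives only. Named genes were the 12 with the largest difference in each direction, measured in both lines or above the noise level of 5 in a single line, the first 3 members and up to 4 called members each way of every list, and the genes of the 3 highest and 3 lowest windows; other genes named in a sentence on a list were chosen after their values were seen. The members and the 27 gene lists (578 of 638 entries measured) were chosen with earlier results of these data known, so lists have counts and medians and no test. A further list and some list members are not reported here. Alternatives covered scaling, filters, the variance model, a replicate block, probe set choice and single arrays left out. A limma fit of the same form was tried on simulated arrays with known changes. The steps for noise, lists and windows were not tried in this way. Python 3.11.15 was used for counts and figures.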

Additional observations from a re-analysis of the deposited data

How the results depend on the processing

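Limits: line and medium cannot be told apart, and the labels name no culture lot or batch. The 3 arrays of a line measure cultures of that line alone, and signals near the floor have no order. A test against a 2-fold difference itself (limma's treat) gave 6482 called probe sets and 3367 called genes, against 10776 and 5195; this test asks for more than 2-fold by its construction. Other settings kept these counts within 1.5 times. Leaving out each array in turn gave 10072 to 10498 called probe sets, 4936 to 5094 called genes, 1497 to 1557 genes above noise in a single line, 325 to 332 called list members of 336 called, a difference in the noise share of -1.20 to -0.86 percentage points, and a chromosome 7 median of 1.90 to 1.95. That median was 1.62 with the median over the probe sets of a gene and 1.73 for genes above 5 on all arrays, both chosen after seeing the data; the cause was not tested. The shared replicate numbers did not pair the cultures (correlation of deviations -0.15 to 0.01 for equal numbers). With the replicate number as a block, 9046 probe sets, 4544 genes and 1407 genes above noise in a single line were called, and 9 of 260 named calls were lost. Signs turned for MDM4 (0.10) and RAPGEF5 (-0.049) with the median over probe sets, and for PPIA (-0.010), NUDCD3 (-0.0009) and RAPGEF5 (-0.12) by the brightest set among those with the plain _at suffix. The median over probe sets lost 26 named calls and gained 4, and the _at sets lost 25. With the _at sets, these include MSX1, MSX2, TAGLN, HOXB8, COL3A1, AGRN, ITGB4, IFI44, ABCC3, SC5D, SLC2A1, INSR, IGF2BP3, UCHL1, MAPT, KRT7, EIF5 and CTBP1. Leaving out single arrays lost 7 and turned none, and gained 7: NGFR, IFI6, IGF1R, EIF4B, TNS2, ZMIZ2 and ZNF880. The variation filter of the study kept 10629 called probe sets.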

Other observations

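Genes of nerve cells were higher in WM793B in 11 of 28 measured and lower in 2, while 12 lay at noise in both lines, among them the neurofilament genes NEFL, NEFM and NEFH. That is 46.4% called, against 26.3% of all genes and 41.7% of genes with a mean above 5. NCAM1, a neural adhesion molecule, read 8.41, 8.35 and 7.86 in WM793B and 2.28 on all 3 arrays of SK-OV-3, and SLITRK6, a neurite-regulating membrane protein, 7.58, 7.57 and 7.68 in WM793B and 2.35 on all 3 arrays of SK-OV-3. NRXN3, a presynaptic receptor gene, read 7.99, 7.98 and 7.50 in WM793B and 2.28, 3.23 and 3.33 in SK-OV-3, and GRIK2, a kainate receptor subunit, 8.40, 8.25 and 7.12 in WM793B and 3.09, 3.09 and 2.96 in SK-OV-3. No SK-OV-3 array was above noise for these 4 genes. UCHL1, a ubiquitin hydrolase of neurons, was at noise in WM793B only, at 2.28 in WM793B and 6.57 in SK-OV-3, in 1 of 2 probe sets. The other lower gene, MAPT, was at noise in WM793B and at least 1.69-fold lower (limma adjusted p = 0.0223), and lost its call without any 1 of 5 arrays, all but SK-OV-3 replicate 1.

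In the insulin and IGF axis, 4 of 16 measured genes were higher in WM793B and 3 were lower. That is 43.8% called, against 26.3% of all genes and 41.7% of genes with a mean above 5. IGFBP2, a carrier of insulin-like growth factors, read 12.76, 12.64 and 13.004 in WM793B and 4.49, 4.61 and 3.92 in SK-OV-3, at least 223-fold higher in WM793B (limma adjusted p = 5.61e-05). INSR, the insulin receptor gene, read 2.28, 2.73 and 3.54 in WM793B and 5.94, 5.52 and 5.78 in SK-OV-3, and IRS2, an adaptor of that receptor, 9.81, 9.78 and 9.68 in WM793B and 8.05, 8.14 and 8.07 in SK-OV-3. INSR was at noise only in WM793B, and IRS2 was above noise in both lines with no overlap. IGFBP6 differed by -2.94, and IGF2BP3, an RNA-binding protein gene on chromosome 7, by 4.78. IGF1R differed by 0.83 and was not called, though it was without WM793B replicate 2 (1.01, limma adjusted p = 0.00526).

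The control PC-3 arrays of the series lay between the lines on chromosome 7. Over the same 454 genes the median difference was 0.74 for WM793B minus PC-3 and 1.04 for PC-3 minus SK-OV-3, against 0.00 and -0.08 over the 9003 genes of other chromosomes. PC-3 grew in yet another medium, RPMI with 10% serum, and these comparisons share arrays with the one reported above.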
